A study of Homo sapiens with 16 samples.

Results

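Induction of downstream-of-gene (DoG) transcripts was examined in RNA prepared by hiAGPC, the heat-assisted form of acid guanidinium thiocyanate-phenol-chloroform (AGPC) extraction. The material was the 4 hiAGPC libraries of the 16 in the series, which were chosen by their labels and not by any measured value. They came from wild-type HEK293 cells, an established line derived from human embryonic kidney. The 2 control libraries were from cells without treatment, whose medium was replaced with medium lacking both agents. The 2 OS+CHX libraries were from cells kept for 9 h in 200 mM sorbitol, which raises the osmolarity of the medium, and 100 µg/mL cycloheximide, an inhibitor of translation elongation. The labels call the replicates biological (n = 2 in each group). The limma p-values rest on the spread between replicates pooled over 8 groups of all 16 libraries and shared in part across DoGs. They do not rest on the spread of the 4 hiAGPC libraries alone. No library received sorbitol or cycloheximide alone, so the 2 agents cannot be told apart. Gene expression values were not used here, so the identity of the line was not checked against its markers.

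When RNA polymerase II does not stop near the end of a gene, it continues into the flanking sequence and produces a readthrough transcript that is joined to the gene upstream. Such DoGs are made in stressed cells, among them cells under osmotic stress, and stay in the nucleus near the locus they came from. Normally the polyadenylation signal at the gene end directs cleavage of the nascent RNA, and termination follows. DoG RNA is often semi-extractable, which means that conventional AGPC leaves much of it at the interphase, and heating the homogenate recovers more of it in the aqueous phase.

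Both kinds of data used here describe the sequence past the gene end. The first is a list for each library of the genes with a DoG and of the DoG region, which had to cover at least 10 kb and was extended in windows of 5 kb. The second is the DoG level in FPKM, fragments scaled to the length of the region and to the size of the library, given for 3139 DoGs of 3135 genes over a region that is the same in every library (4 genes have 2 entries). The FPKM region was longer than the longest OS+CHX hiAGPC region for 956 of the 1392 genes (68.7%) that had an FPKM value and were listed in both OS+CHX hiAGPC libraries, since regions of the other preparations also set it. FPKM values are scaled within each library and listed in steps of 0.01. The depth of each library is therefore unknown here beyond the nominal 20 to 60 M read pairs, and a higher FPKM can stand for more DoG RNA or for less of other RNA. In the FPKM table, 41.4% of the DoG regions reached at least 1 other gene on the same strand, and reads of that gene then count in the DoG.

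The sequence at the point where the DoG begins is shown for 3 of the DoGs with the largest increases (SECISBP2, HNRNPDL and DDX39B) and 3 of those with the largest decreases (TMA16, ZNF398 and CDCA7), since cleavage at this point would separate the gene from its DoG. The sequences are of the GRCh38 reference, 5′ to 3′ on the strand of the gene, and capitals mark the polyadenylation hexamers AATAAA and ATTAAA.
SECISBP2, last 30 bases before the DoG, chr9:89363604-89363633, plus strand: ctcaatggaaagccAATAAAacccaaaccc
SECISBP2, first 100 bases of the DoG, chr9:89363634-89363733, plus strand: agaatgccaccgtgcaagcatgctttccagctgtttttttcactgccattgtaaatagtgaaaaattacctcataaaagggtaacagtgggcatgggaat
HNRNPDL, last 30 bases before the DoG, chr4:82422565-82422594, minus strand: ctATTAAAatgagatgtctgttgggatgct
HNRNPDL, first 100 bases of the DoG, chr4:82422465-82422564, minus strand: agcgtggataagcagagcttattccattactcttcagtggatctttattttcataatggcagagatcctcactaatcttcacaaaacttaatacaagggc
DDX39B, last 30 bases before the DoG, chr6:31530218-31530247, minus strand: tgaaacacatgtgtctgtggtatctataag
DDX39B, first 100 bases of the DoG, chr6:31530118-31530217, minus strand: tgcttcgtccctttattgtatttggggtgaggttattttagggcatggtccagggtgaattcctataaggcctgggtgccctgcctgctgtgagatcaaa
TMA16, last 30 bases before the DoG, chr4:163520704-163520733, plus strand: gtcataaattgcATTAAAgagaataagaac
TMA16, first 100 bases of the DoG, chr4:163520734-163520833, plus strand: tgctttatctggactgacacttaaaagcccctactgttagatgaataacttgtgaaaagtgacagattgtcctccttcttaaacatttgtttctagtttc
ZNF398, last 30 bases before the DoG, chr7:149183013-149183042, plus strand: ctcgttgatATTAAAaaaaaaaaaaaaaaa
ZNF398, first 100 bases of the DoG, chr7:149183043-149183142, plus strand: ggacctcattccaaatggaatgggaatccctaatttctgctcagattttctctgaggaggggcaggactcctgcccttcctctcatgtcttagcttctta
CDCA7, last 30 bases before the DoG, chr2:173368968-173368997, plus strand: taaaaggccatttccaccttttctaaaaaa
CDCA7, first 100 bases of the DoG, chr2:173368998-173369097, plus strand: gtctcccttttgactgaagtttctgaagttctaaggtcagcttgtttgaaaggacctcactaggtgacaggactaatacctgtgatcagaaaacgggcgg

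A hexamer stood before the DoG in SECISBP2, HNRNPDL, TMA16 and ZNF398 and in neither window of DDX39B and CDCA7, so DoGs of both directions had it. Among genes with large changes that are not shown, KMT2E-AS1 had 1 hexamer in the last 30 bases before the DoG. H2BC18 and RCN3 had 0 in either window. VWDE, with a large decrease, had 0 before the DoG but 2 in the first 100 bases of the DoG. Over all DoGs, AATAAA or ATTAAA lay within the last 40 bases before the DoG in 62.9% of the genes whose DoG was called higher, in 60.3% of those called lower and in 66.1% of those not called. The same hexamers lay within the last 40 bases of 70.2% of all annotated protein-coding genes and of 45.7% of all lncRNA genes. On the opposite strand of the same windows the share was 9.03% over all DoGs. The presence of these letters is a description of the sequence and does not show that a site is used.

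More genes had a DoG under the DoG-inducing condition, and their DoGs were longer. The control libraries listed 486 and 478 DoG-producing genes and the OS+CHX libraries 1789 and 1747, a ratio of mean numbers of 3.67. The median DoG length was 10 kb in both control libraries, the shortest length that was listed, and 30 and 25 kb in the OS+CHX libraries. DoGs of exactly 10 kb made up 59.1% and 59.0% of the control lists but 20.6% and 22.0% of the OS+CHX lists. DoGs of at least 100 kb numbered 4 and 5 in the control libraries and 314 and 279 in the OS+CHX libraries. The longest DoG was 260 and 245 kb in the control libraries and 895 kb in both OS+CHX libraries. In total the DoG regions covered 8.27 Mb in each control library and 114 and 106 Mb in the OS+CHX libraries, 13.3 times as much on average. All these measures were separated between the groups, and the difference exceeded the spread between replicates, but a two-sided exact permutation test of 2 libraries against 2 has only 3 splits and gave p = 0.333, the smallest value it can give.

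**Figure D1:**
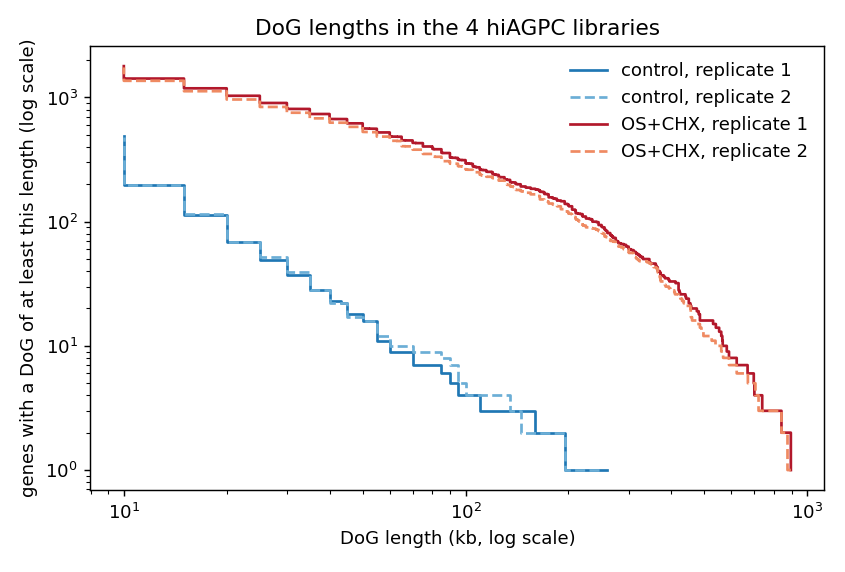
Number of genes (vertical axis, log scale) with a DoG of at least the length on the horizontal axis (kb, log scale), for each of the 4 hiAGPC libraries. The 2 libraries of each group lie close together, and the OS+CHX curves lie above the control curves at every length, with 314 and 279 genes against 4 and 5 at 100 kb.

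DoG-producing genes listed in both replicates numbered 424 in control and 1555 in OS+CHX. The 2 conditions shared 172 of them, which is 40.6% of the control genes and 11.1% of the OS+CHX genes. The 1383 genes reproducible in OS+CHX alone were mostly listed in no control library at all (1348 genes), and their DoGs had a median length of 32.5 kb, with 238 of at least 100 kb. The opposite pattern also occurred, in 252 genes reproducible in control alone, of which 214 were listed in no OS+CHX library. Their DoGs were short, with a median of 12.5 kb and a longest of 195 kb.

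The genes shared by both conditions allow the listed length of the same DoG to be compared. Among these 172, the median length was 10 kb in control and 30 kb in OS+CHX, with a median ratio of 2.25. The DoG was longer in OS+CHX for 123 genes, equal for 38 and shorter for 11. A DoG of 10 kb in control, the shortest length listed, could only stay equal or become longer. The balance of longer and shorter DoGs was therefore partly fixed in advance. For 109 genes, or 63.4% of the 172, both OS+CHX regions were longer than both control regions, and for 8 genes (4.65%) both were shorter. The DoG was at least 5 times as long for 56 genes and at least 10 times for 35. The median ratio was 1.5 over the 78 genes whose regions reached no other gene on the same strand.

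Of the 5 largest length ratios, 4 belonged to genes whose products bind or unwind RNA. How many of the 172 genes are of this kind was not counted, but 13 were splicing factor or RNA helicase genes. An excess among the largest ratios was not tested. The DoG of HNRNPD, which encodes an AU-rich element binding protein, was 10 kb long in both control libraries and 895 and 875 kb in OS+CHX, reaching across chr4:81456523-82351522 in OS+CHX replicate 1. MORF4L1, which encodes a chromatin protein, had a DoG of 10 kb in both control libraries and of 840 kb in both OS+CHX libraries. The DoG of the RNA helicase gene DHX15 grew from 10 kb in each control library to 475 and 525 kb. PCBP2, a poly(C) binding protein gene, went from 10 kb in each control library to 411 and 456 kb. HNRNPU, whose product binds nuclear RNA and chromatin, had 15 kb in each control library against 552 and 567 kb. In all 5 genes the replicates differed far less than the conditions. Between 1 and 5 other genes on the same strand lay within the FPKM regions of these 5 DoGs.

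The smallest ratios belonged to ECD, CPLANE1 and ZFP14. The DoG of ECD, a regulator of splicing and the cell cycle, was 50 kb in both control libraries and 10 kb in both OS+CHX libraries. That of CPLANE1, a ciliogenesis gene, was 35 and 40 kb in control and 10 and 15 kb in OS+CHX. ZFP14, a zinc finger gene, had 25 kb in both control libraries and 10 kb in both OS+CHX libraries. The FPKM regions of ECD, CPLANE1 and ZFP14 reached 3, 0 and 1 other genes on the same strand. Of their levels, only that of ZFP14 was called lower, with a log2 fold change of -1.73, against -0.62 for ECD and -0.83 for CPLANE1, which did not pass the size threshold.

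**Figure D2:**
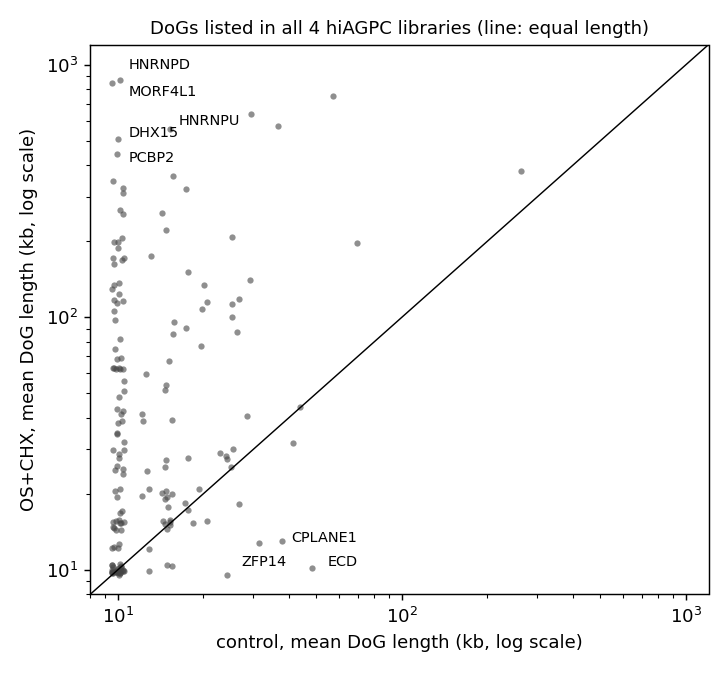
Mean DoG length of the 172 genes listed in all 4 hiAGPC libraries, control (horizontal axis) against OS+CHX (vertical axis), in kb on log scales, with a small random offset so that equal lengths can be seen. Points above the line are longer in OS+CHX (123 genes), and the 5 largest and 3 smallest ratios are named. No region shorter than 10 kb could be listed.

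The longest DoGs of OS+CHX cells came from RPS29, HNRNPD, MORF4L1, SYNCRIP and HAPSTR1. RPS29, a protein of the small ribosomal subunit, had a DoG of 895 kb in both OS+CHX libraries, across chr14:48675984-49570983 on the minus strand, and was listed in no control library. Its level was 0.03 FPKM in both control libraries and 2.52 and 2.48 FPKM in OS+CHX. The DoG of SYNCRIP, an hnRNP gene, measured 20 and 100 kb in control and 738 and 720 kb in OS+CHX. HAPSTR1, a gene of the stress response, had no DoG listed in control and DoGs of 700 and 705 kb in OS+CHX. The SYNCRIP regions of the control replicates differed by more than those of the OS+CHX replicates, and both stayed below them.

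The DoG level rose for most DoGs measured. A level is averaged over the whole FPKM region, so a gain in length can also count as a gain in level. For HNRNPD, control DoGs of 10 kb were averaged over an FPKM region of 905 kb. The fold changes and calls below do not separate length from level. The median over all DoGs was 0.08 FPKM in both control libraries and 0.58 FPKM in both OS+CHX libraries. At 0 FPKM were 352 and 330 DoGs in the control libraries but 1 in each OS+CHX library. Levels were tested with limma as log2(FPKM + 0.1), a scale that shrinks the fold changes of low DoGs, and a DoG was called where the adjusted p was under 0.05 and the log2 fold change was at least 1 in size. By this rule 70.2% of the DoGs were called higher in OS+CHX (2203 of 3139), 9.14% were called lower (287) and 20.7% were not called (649). The median log2 fold change was 1.86, with quartiles of 0.66 and 2.55, and 371 DoGs called higher rose by at least 3 on the log2 scale. Replicates differed by a median of 0.082 in control and 0.080 in OS+CHX on the same scale. In each of the 2490 called DoGs the levels of the 2 groups did not overlap, which over all DoGs was so for 80.4% with OS+CHX higher and 17.5% with OS+CHX lower.

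Because the whole distribution moved, the calls depend on what is taken as no change. With every library centred on the median of its DoGs, which lowers every log2 fold change by 1.92, 13.9% of the DoGs were called higher (435) and 28.7% lower (900). By this shift the calls could only move from higher towards lower. With a pseudocount of 1 in place of 0.1, 340 were called higher and 4 lower.

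**Figure D3:**
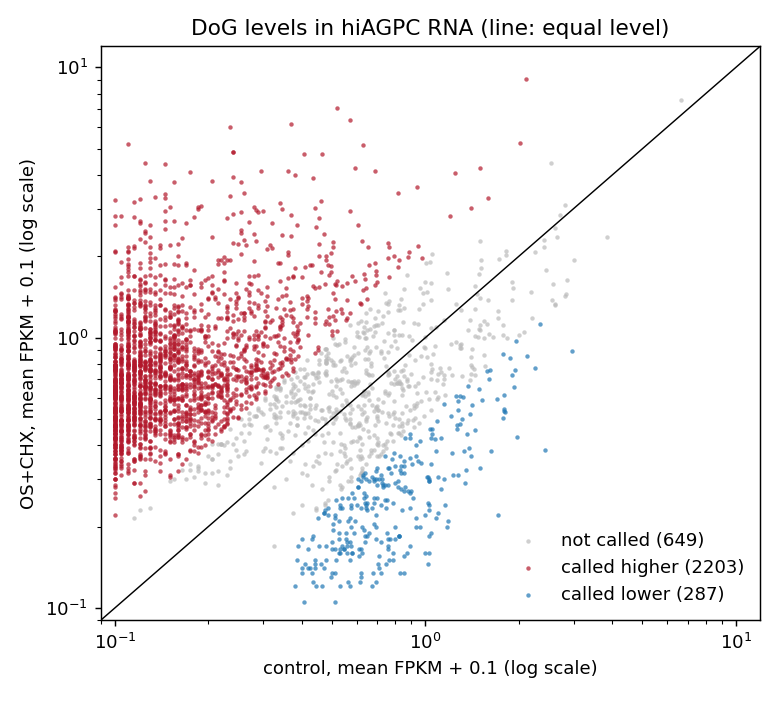
Mean DoG level of the 2 control hiAGPC libraries (horizontal axis) against the 2 OS+CHX hiAGPC libraries (vertical axis), as FPKM + 0.1 on log scales, for 3139 DoGs. Of these, 2203 called higher lie above the line of equal level, mostly at control levels near 0, and 287 called lower lie below it at higher control levels.

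The lists and the levels come from the same libraries, so a DoG that was listed in 1 condition alone was bound to have mostly higher levels there, and no count of calls is given for such DoGs. Of the 167 genes with an FPKM value that were reproducible in both conditions, 80 were called higher and 5 lower, and their log2 fold changes had a median of 0.98. The FPKM table does not only hold DoGs found by hiAGPC, since 769 of the genes called higher and 103 of those called lower were in none of the 4 hiAGPC lists. The table also holds mainly DoGs found under the DoG-inducing condition, so the share of DoGs called higher is not a share of all genes.

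The 2 classes of called DoGs were also described by other features. Their levels follow in part from the call itself. DoGs called higher had a median level of 0.04 FPKM in control and 0.64 FPKM in OS+CHX, whereas those called lower had 0.64 FPKM in control and 0.14 FPKM in OS+CHX. The median FPKM region was 40 kb for DoGs called higher and 15 kb for both those called lower and those not called. The genes themselves had a median length of 29.2 kb where the DoG was called higher, 46.9 kb where it was called lower and 37.5 kb where it was not called. GC content of the first 10 kb of the DoG was 46.7%, 42.0% and 45.2% in the same order. lncRNA genes made up 9.57% of the genes with a DoG called higher, 6.27% of those called lower and 4.64% of those not called. Another gene on the same strand was reached by 42.1% of the DoGs called higher, 30.3% of those called lower and 43.8% of those not called. These are medians and shares without a test, and the length of the region and the control level were themselves part of how a DoG was found.

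The DoGs with the largest increases, among those listed in both OS+CHX libraries, included several genes of RNA metabolism. SECISBP2, whose product inserts selenocysteine during translation, had a DoG level of 0.01 FPKM in both control libraries and of 5.17 and 5.00 FPKM in OS+CHX. Its log2 fold change was 5.56 (SE 0.077, adjusted p = 2.21e-13, limma), and the DoG covered 115 and 120 kb past the gene without reaching another gene on the same strand. HNRNPDL, which encodes an hnRNP protein, had 0.02 and 0.03 FPKM in control and 4.21 and 4.42 FPKM in OS+CHX (log2 fold change 5.14, SE 0.085, adjusted p = 2.44e-13). Its DoG was 45 kb long in both OS+CHX libraries. In both genes the 2 control values lay at the lower end of the scale, within 0.03 FPKM of 0.

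DDX39B, an RNA helicase of splicing and mRNA export, rose from 0.05 and 0.04 FPKM to 4.30 and 4.28 FPKM (log2 fold change 4.92, SE 0.085, adjusted p = 2.84e-13). HNRNPA2B1, another hnRNP gene, rose from 0.02 FPKM in both control libraries to 3.18 and 3.13 FPKM, with a DoG of 560 kb in both OS+CHX libraries. USP11, encoding a deubiquitinase, rose from 0.03 and 0.04 FPKM to 3.30 and 3.11 FPKM. Control and OS+CHX values were far apart in all of these. The FPKM regions of DDX39B, HNRNPA2B1 and USP11 reached 1, 4 and 3 other genes on the same strand. RCN3, a calcium-binding protein of the endoplasmic reticulum, rose from 0.01 and 0.02 FPKM to 3.20 and 2.94 FPKM. The gene listed only as ENSG00000170846 had 0.11 and 0.16 FPKM in control and 5.99 and 5.84 FPKM in OS+CHX, the highest OS+CHX levels of the 10. H2BC18, a histone gene, KMT2E-AS1, an antisense lncRNA, and LGALS4, a galectin gene, were listed at 0 FPKM in both control libraries. Their OS+CHX levels were 3.05 and 3.21 FPKM for H2BC18, 2.71 FPKM in both libraries for KMT2E-AS1, and 2.45 and 2.58 FPKM for LGALS4, so no fold is given for them.

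The DoGs with the largest decreases, among those listed in both control libraries, had control levels between 0.57 and 2.35 FPKM. TMA16, whose product is associated with the translation machinery, had 1.60 and 1.62 FPKM in control and 0.14 and 0.10 FPKM in OS+CHX (log2 fold change -2.96, SE 0.148, adjusted p = 8.38e-10). VWDE had 0.94 and 0.90 FPKM in control and 0.04 and 0.05 FPKM in OS+CHX. ZNF398, a zinc finger gene, had 0.89 and 0.97 FPKM against 0.07 and 0.05 FPKM. CDCA7, which acts with the remodeller HELLS in DNA methylation, fell from 0.78 and 0.73 FPKM to 0.04 and 0.03 FPKM (log2 fold change -2.66, SE 0.113, adjusted p = 1.61e-10). In these 4 genes hiAGPC did not list a DoG under OS+CHX, and the control DoGs were 10 to 25 kb long.

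Genes of several other functions fell by similar amounts. COX5A, a subunit of cytochrome c oxidase, went from 0.87 and 0.93 FPKM to 0.06 FPKM in both OS+CHX libraries. ADAT2, a tRNA adenosine deaminase, went from 1.13 and 1.02 FPKM to 0.12 and 0.08 FPKM. ATIC, an enzyme of purine synthesis, went from 1.11 and 1.05 FPKM to 0.11 FPKM in both. EZHIP, an inhibitor of Polycomb repressive complex activity, had 0.57 and 0.58 FPKM in control and 0.02 FPKM in both OS+CHX libraries. The longest control DoGs of these 10 genes belonged to AMZ2P1, a pseudogene, and DZIP1L, a cilium gene. The AMZ2P1 DoG was 70 and 45 kb long in control, and its level fell from 2.32 and 2.35 FPKM to 0.30 and 0.27 FPKM. Reads of a pseudogene can be shared with its parent gene, and only uniquely mapped reads were kept, so its level is less certain. The DZIP1L DoG was 55 kb long in both control libraries, and its level fell from 0.90 and 0.96 FPKM to 0.08 and 0.09 FPKM.

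**Figure D4:**
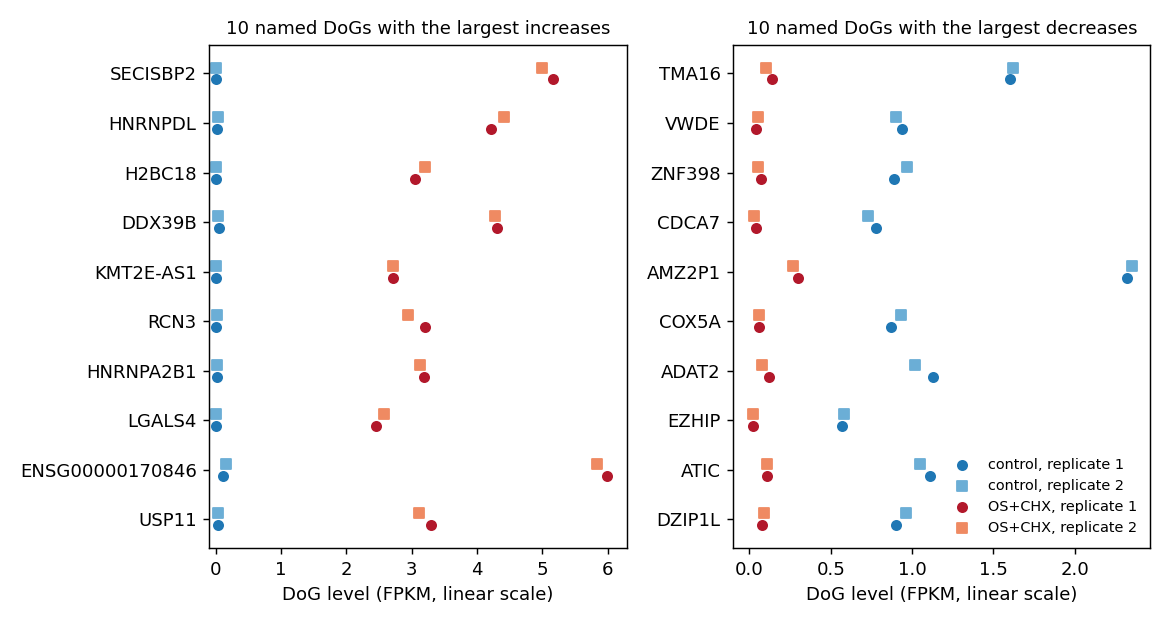
DoG level (FPKM, linear scale) in each of the 4 hiAGPC libraries for the 10 DoGs with the largest increases (left) and the 10 with the largest decreases (right) among called DoGs listed in both libraries of the higher condition. Blue and light blue points are control replicates, red and orange points OS+CHX replicates, and the 2 groups do not overlap for any of the 20 DoGs.

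The genes of the study's own examples differed in direction. RRM2, a subunit of ribonucleotide reductase, had 0.12 and 0.13 FPKM in control and 1.39 and 1.30 FPKM in OS+CHX, a log2 fold change of 2.68 (SE 0.085). Its DoG was listed in OS+CHX alone and was 220 kb long in both libraries, at chr2:10211726-10431725. ARID1B, a subunit of the BAF remodelling complex, had 0.05 FPKM in both control libraries and 0.50 and 0.52 FPKM in OS+CHX, a log2 fold change of 2.02, yet its DoG was in none of the 4 hiAGPC lists. TMEM38B, an ion channel of the endoplasmic reticulum, had 0.44 FPKM in both control libraries and 0.25 and 0.22 FPKM in OS+CHX. Its log2 fold change of -0.69 did not pass the size threshold, and its DoG of 20 kb was listed in control replicate 1 alone. The ARID1B change was close to the shift of the median DoG, at 0.11 after centring.

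Gene groups were then set beside the share of all DoGs, 70.2% higher and 9.14% lower in the limma fit. In the 8 groups with 0 DoGs called lower, a lower level at an unadjusted p under 0.05 in the limma fit occurred in 3 splicing factor and helicase genes. It occurred in 1 chromatin gene and in 0 of the genes of the other 6 groups. Over all genes it occurred in 485 of 3135. Several of these groups hold few genes, so a count of 0 says little. For cytosolic ribosomal proteins, 36 of the 42 genes with an FPKM value were called higher, 1 lower and 5 not called, with a median log2 fold change of 2.60. RPS12, of the small subunit, rose from 0.49 and 0.50 FPKM to 4.14 and 4.17 FPKM, with a DoG of 205 kb in both OS+CHX libraries. The study chose its settings for DoG detection by how they performed at RPS12, so the length of this DoG is not an independent example. RPL11, of the large subunit, rose from 1.50 and 1.47 FPKM to 3.27 and 3.12 FPKM while its DoG stayed at 45 kb in all 4 libraries, and this log2 fold change of 1.06 was below the median shift. RPL39L, a paralog of RPL39, was the member called lower, from 0.32 and 0.29 FPKM to 0.01 and 0 FPKM. Over the group, 41 genes were listed in both OS+CHX libraries and 2 in both control libraries, and the OS+CHX DoGs had a median length of 55 kb. Of the 15 members whose region reached no other gene on the same strand, 13 were called higher.

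Translation factors had 23 of 30 called higher and 2 lower, and the median log2 fold change was 1.76. EIF5A, an elongation factor, rose from 0.05 and 0.04 FPKM to 2.95 and 2.74 FPKM. EIF3CL, a near-identical copy of EIF3C whose reads are therefore less certain, fell from 1.28 and 1.41 FPKM to 0.37 and 0.34 FPKM. GSPT1, a translation termination factor, had 2.76 and 2.67 FPKM in control and 3.04 and 2.96 FPKM in OS+CHX and was not called. Histone genes had 25 of 27 called higher and 0 lower, and the median log2 fold change was 3.14, the highest of the 19 groups. H2BC11, a histone H2B gene, rose from 0.27 FPKM in both control libraries to 6.02 and 6.10 FPKM, with DoGs of 291 and 221 kb. Histone genes lie in clusters, and 16 of the 27 regions reached another gene, but all 11 that did not were also called higher.

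Genes of stress responses were described in 4 groups. All 12 immediate early genes with an FPKM value were called higher, with a median of 2.77. BTG1, an antiproliferative gene, rose from 0.13 and 0.12 FPKM to 1.90 and 1.89 FPKM, and its DoG from 35 and 40 kb to 590 kb in both OS+CHX libraries. IER5, an early response gene, rose from 0.02 FPKM in both control libraries to 1.34 FPKM in both OS+CHX libraries. EGR3, a transcription factor gene, rose from 0.15 and 0.14 FPKM to 1.39 and 1.33 FPKM. Of the 9 genes of the integrated stress and p53 response, all were called higher, with a median of 2.22. SESN2, a stress sensor, rose from 0.14 and 0.11 FPKM to 1.50 and 1.54 FPKM. PPP1R15A, the stress-induced subunit of the eIF2α phosphatase, rose from 0.21 and 0.17 FPKM to 0.91 and 0.87 FPKM, less than the median shift. These groups count few genes, since only those with a DoG in some library have a value.

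Of the 7 osmotic response genes, 6 were called higher and 0 lower, and the median log2 fold change was 2.62. The glucose transporter gene SLC2A1 rose from 0.01 and 0.02 FPKM to 0.85 and 0.78 FPKM, and the cotransporter gene SLC12A2, which takes up sodium, potassium and chloride, from 0.07 and 0.09 FPKM to 0.62 and 0.56 FPKM. The kinase gene WNK1, which acts upstream of that cotransporter, had 0.38 and 0.41 FPKM in control and 0.75 and 0.70 FPKM in OS+CHX, a log2 fold change of 0.74 that did not pass the size threshold. MAP3K7, a kinase upstream of stress-activated MAP kinases, rose from 0.17 and 0.13 FPKM to 0.80 and 0.96 FPKM. Heat shock proteins and cochaperones had 11 of 19 called higher (57.9%) and 1 lower, and the median log2 fold change was 1.20. DNAJA1 rose from 0.04 FPKM in both control libraries to 1.15 and 1.30 FPKM, and DNAJC30 fell from 0.77 and 0.71 FPKM to 0.11 and 0.15 FPKM. DNAJC7 had 2.38 and 2.25 FPKM in control and 2.11 and 2.03 FPKM in OS+CHX. These 3 encode cochaperones of the DNAJ family. After centring, the limma fit called 6 immediate early genes higher and 0 lower, 1 osmotic response gene higher and 1 lower, and 1 heat shock or cochaperone gene higher and 8 lower. It called 0 of the 9 integrated stress and p53 genes in either direction. Over all DoGs the centred shares were 13.9% higher and 28.7% lower. Groups outside the stress responses kept calls too, with 15 of 27 histone genes higher and 1 lower. Of 42 cytosolic ribosomal protein genes, 17 were higher and 6 lower, and of 38 respiratory chain and mitochondrial ribosome genes, 3 and 18. At an unadjusted p under 0.05 after centring, 9 immediate early genes were higher and 2 lower, and 5 integrated stress and p53 genes were higher and 0 lower.

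Genes that act on RNA had many long DoGs. Of 70 splicing factors and RNA helicases, 55 were called higher (78.6%) and 0 lower, and the median log2 fold change was 2.07. Their DoGs listed in both OS+CHX libraries had a median length of 100 kb, and 23 of 45 (51.1%) measured at least 100 kb, against 18.3% of all 1555 such DoGs. Already in control, 16 of these genes were listed in both libraries, 13 of them in both conditions. SRSF1, a splicing factor gene, rose from 0.31 and 0.30 FPKM to 4.76 and 4.58 FPKM, and its DoG from 30 kb in both control libraries to 621 kb in both OS+CHX libraries. HNRNPC, which binds U-rich RNA, rose from 0.14 FPKM in both control libraries to 4.87 and 4.66 FPKM, although its DoG was 564 kb in OS+CHX replicate 1 and 45 kb in replicate 2. The replicates of HNRNPC thus differed in length but little in level. Of the 28 regions in this group that reached no other gene on the same strand, 20 were called higher, with a median of 1.52.

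The machinery of 3′ end formation and termination had 11 of 13 called higher and 0 lower, and the median log2 fold change was 1.94. INTS6, a subunit of the Integrator complex, rose from 0.02 and 0.03 FPKM to 2.40 and 2.37 FPKM with a DoG of 270 kb in both OS+CHX libraries. PABPC1, the cytoplasmic poly(A) binding protein, rose from 0.17 FPKM in both control libraries to 2.59 and 2.56 FPKM. Genes of RNA polymerase II transcription had 17 of 27 called higher and 3 lower, and the median log2 fold change was 1.39. CDK12, a kinase of the polymerase, rose from 0.19 and 0.17 FPKM to 2.40 and 2.22 FPKM, and the elongation factor gene ELL2 from 0.01 FPKM in both control libraries to 0.89 and 0.90 FPKM. GTF2F2, a subunit of the general factor TFIIF, fell from 0.52 and 0.53 FPKM to 0.06 FPKM in both OS+CHX libraries. GTF2F2 had no DoG in any hiAGPC list.

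Chromatin modifiers and remodellers had 27 of 32 called higher and 0 lower, and the median log2 fold change was 1.69. CHD2, a chromatin remodeller, rose from 0.01 FPKM in both control libraries to 1.81 and 1.75 FPKM. DNMT1, the maintenance DNA methyltransferase, had 2.57 and 2.32 FPKM in control and 4.42 and 4.27 FPKM in OS+CHX, a log2 fold change of 0.81 that did not pass the size threshold. TET1, which oxidizes methylcytosine, had 2.94 and 2.89 FPKM in control and 1.74 and 1.94 FPKM in OS+CHX, with a log2 fold change of -0.64 that also missed it. Cell cycle genes had 22 of 35 called higher and 2 lower, and the median log2 fold change was 1.42. CCNG2, an atypical cyclin, rose from 0.01 FPKM in both control libraries to 1.10 and 1.08 FPKM, and MCM9, a helicase of DNA repair, fell from 0.65 and 0.85 FPKM to 0.23 and 0.24 FPKM. Ubiquitin and proteasome genes had 52 of 75 called higher and 5 lower, and the median log2 fold change was 1.83. RNF40, a histone H2B ubiquitin ligase, rose from 0.15 and 0.16 FPKM to 3.77 and 3.53 FPKM. UBE2S, a ubiquitin-conjugating enzyme of mitosis, rose from 0.10 and 0.11 FPKM to 3.85 and 3.55 FPKM, while the deubiquitinase gene OTUD6B fell from 0.84 and 0.83 FPKM to 0.09 and 0.11 FPKM.

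DoGs called lower made up the largest shares in 2 of the 19 groups. Among zinc finger genes of the ZNF series, 37 of 67 were called higher (55.2%) and 11 lower (16.4%), and the median log2 fold change was 1.42, and 20 were listed in both control libraries. ZNF446 rose from 0.07 FPKM in both control libraries to 1.76 and 1.75 FPKM. ZNF207, a mitotic zinc finger protein, had the highest OS+CHX level of the FPKM table, 8.96 and 8.95 FPKM against 2.00 and 2.02 FPKM in control, and its DoG went from 25 to 100 kb in both libraries. Respiratory chain and mitochondrial ribosome genes had 19 of 38 called higher (50%) and 6 lower (15.8%), and the median log2 fold change was 0.98, the lowest of the 19 groups. NDUFV1, of complex I, rose from 0.01 FPKM in both control libraries to 1.26 and 1.21 FPKM. MRPS30, of the mitochondrial ribosome, fell from 2.12 and 2.35 FPKM to 1.00 and 1.05 FPKM with DoGs of 15 and 20 kb in both conditions. SDHA, of complex II, had 1.19 and 1.12 FPKM in control and 1.23 FPKM in both OS+CHX libraries, with a DoG of 10 kb in all 4. No test compares these groups with the rest.

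Solute carriers had 28 of 38 called higher and 2 lower, and the median log2 fold change was 1.96. SLC35D2, a nucleotide sugar transporter, was listed at 0 FPKM in both control libraries and had 0.98 and 0.96 FPKM in OS+CHX. SLC7A5, an amino acid transporter that is also a target of the integrated stress response, rose from 0.01 and 0.02 FPKM to 0.77 and 0.69 FPKM, and SLC36A1, a lysosomal amino acid transporter, fell from 0.62 and 0.60 FPKM to 0.20 FPKM in both OS+CHX libraries. Among the noncoding genes, all 11 snoRNA host genes were called higher, with a median of 2.63. GAS5 rose from 0.13 FPKM in both control libraries to 2.67 and 2.69 FPKM with DoGs of 372 and 371 kb, and SNHG29 from 0.01 FPKM in both to 1.31 and 1.29 FPKM. Antisense lncRNAs had 106 of 122 called higher and 6 lower, and the median log2 fold change was 2.25. ADAMTSL4-AS2 rose from 0.13 and 0.14 FPKM to 3.32 and 3.19 FPKM, and TCEAL3-AS1 fell from 0.52 FPKM in both control libraries to 0.03 and 0.04 FPKM. Divergent lncRNAs had 23 of 32 called higher and 3 lower, and the median log2 fold change was 1.84. MVP-DT rose from 0.03 FPKM in both control libraries to 1.83 and 1.77 FPKM. The libraries were stranded, but the strand setting of the DoG counting is not given in the sources used here, so reads of these genes and of their partners on the other strand may be mixed.

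**Figure D5:**
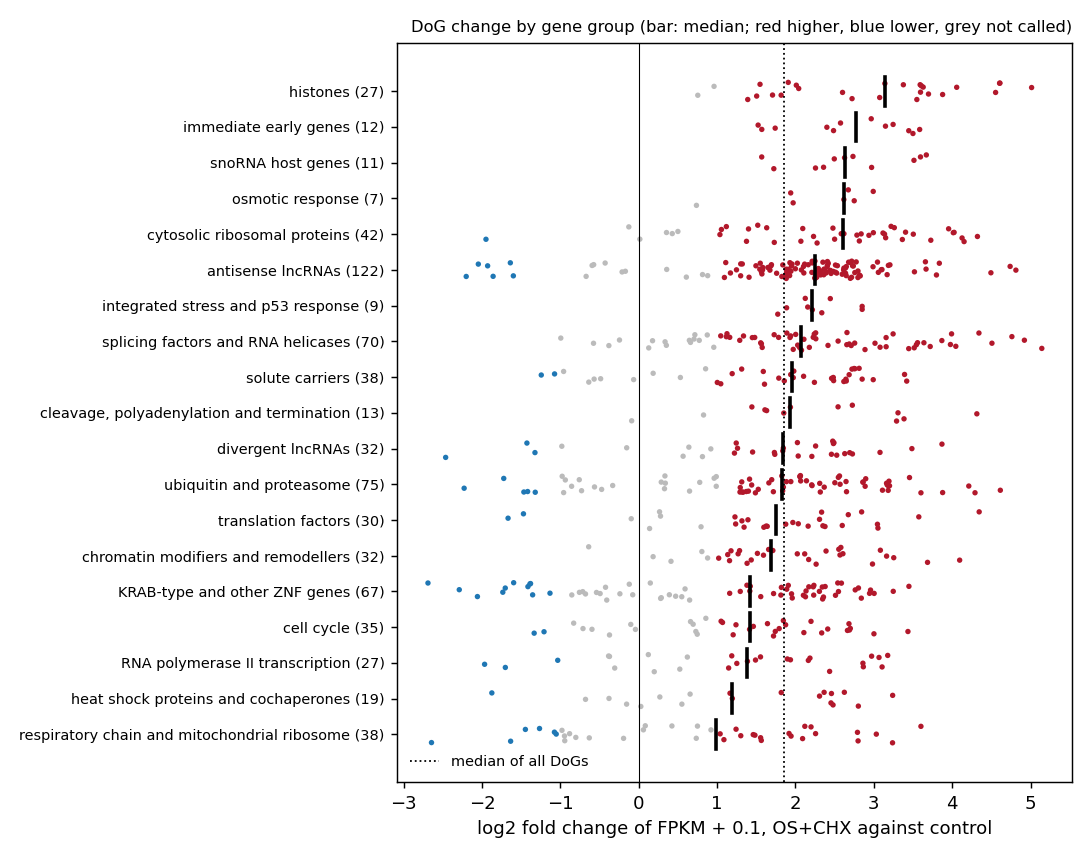
Log2 fold change of FPKM + 0.1 in hiAGPC, OS+CHX against control (horizontal axis), for the genes of 19 groups, with the number of genes in parentheses. Each point is a gene (red called higher, blue called lower, grey not called), the short bars are group medians from 0.98 to 3.14, and the dotted line is the median of all DoGs, 1.86.

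The change in hiAGPC was compared with that in 2 other preparations of the same experiment, by the difference of the log2 fold changes in the same limma fit. Only DoGs found in some library could be compared, and the study found more of them in hiAGPC than in conventional RNA. DoGs that were high in OS+CHX hiAGPC RNA thus entered more often. The balance of positive and negative differences was therefore partly fixed in advance. Against conventional AGPC, which has no heating step, the log2 fold change was more positive in hiAGPC for 64% of the DoGs (2009) and more negative for 0.733% (23), with a median difference of 1.29. Of the 2009, 1863 were called higher in hiAGPC, and of the 23, 21 were called lower there. The most positive differences were in USP11, RAB3A and RCN3. The DoG of USP11 had 0.03 FPKM in both conventional control libraries and 0.15 and 0.14 FPKM in OS+CHX, a log2 fold change of 0.91 against 4.61 in hiAGPC (difference 3.70, SE 0.113, adjusted p = 1.03e-09). RAB3A, a GTPase of vesicle release, had 0.01 FPKM in all 4 control libraries of both preparations, 0.10 and 0.09 FPKM in OS+CHX conventional RNA and 2.10 and 1.87 FPKM in OS+CHX hiAGPC RNA. RCN3 was listed at 0 FPKM in both conventional control libraries and had 0.17 and 0.16 FPKM in OS+CHX. The most negative differences were in HCCS-DT, AGAP9 and OR6A2, whose DoGs fell further in hiAGPC. HCCS-DT, a divergent lncRNA, had 0.69 and 0.50 FPKM in control hiAGPC RNA and 0.03 and 0.02 FPKM in OS+CHX, against 0.11 and 0.07 FPKM and 0.03 and 0 FPKM in conventional RNA. AGAP9, one of several near-identical copies, fell from 1.80 and 1.93 FPKM to 0.36 and 0.30 FPKM in hiAGPC and had 1.37 and 1.48 FPKM in control and 0.86 and 0.90 FPKM in OS+CHX conventional RNA. OR6A2, an olfactory receptor gene, fell from 0.44 and 0.42 FPKM to 0.02 FPKM in both OS+CHX libraries in hiAGPC. After centring, 109 differences were called positive and 542 negative.

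Against the SERIPH 2nd-step fraction, which is recovered from the washed interphase, the log2 fold change was more positive in hiAGPC for 1.15% of the DoGs (36) and more negative for 5.58% (175), with a median difference of -0.39. Of the 175, 145 were called higher in hiAGPC and thus rose less there than in the SERIPH 2nd-step fraction. Of the 36, 23 were called lower in hiAGPC and thus fell less there, and 4 were called higher. The 3 DoGs with the most negative differences were all of histone H4 genes. H4C4 had 1.98 and 1.84 FPKM in control hiAGPC RNA and 0.03 FPKM in both control SERIPH 2nd-step libraries, while under OS+CHX the levels were 5.16 and 5.18 FPKM in hiAGPC and 4.39 and 4.48 FPKM in the SERIPH 2nd-step fraction (difference -3.73, SE 0.141, adjusted p = 3.92e-08). H4C7 had 0.48 and 0.46 FPKM against 0.01 and 0 FPKM in the control libraries of the same preparations, and H4C11 had 0.53 and 0.43 FPKM against 0.04 and 0.05 FPKM. For these 3 genes the preparations thus differed most in control cells. Their FPKM regions of 154, 27.4 and 66.3 kb reached 6, 1 and 2 other genes, other histone genes among them. The most positive differences were in NEK6, ZFP14 and BMS1P1. NEK6, a mitotic kinase, had 1.47 and 1.30 FPKM in control and 1.57 and 1.67 FPKM in OS+CHX in hiAGPC, against 0.57 and 0.47 FPKM and 0.18 and 0.06 FPKM in the SERIPH 2nd-step fraction. The DoG of ZFP14 fell in both preparations, but to 0.75 and 0.84 FPKM in hiAGPC and to 0.19 and 0.18 FPKM in the SERIPH 2nd-step fraction, from between 2.84 and 2.88 FPKM in all 4 control libraries. BMS1P1, a pseudogene, fell from 0.89 and 0.97 FPKM to 0.22 and 0.17 FPKM in hiAGPC and from 1.21 and 1.20 FPKM to 0.03 and 0.01 FPKM in the SERIPH 2nd-step fraction. After centring, 121 differences were called positive and 28 negative.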

How the data were processed

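The study sequenced rRNA-depleted, stranded libraries of HEK293 RNA as paired reads of 150 bp. Per the labels and the study's methods, the authors trimmed reads with fastp 0.25.0, discarded rDNA reads using Bowtie2 2.5.4, mapped what remained with STAR 2.7.11b (GRCh38, unique alignments only) and called DoGs with ARTDeco (minimum length 10000 bp, window 5000 bp, minimum coverage 0.5) on GENCODE 49 protein-coding and lncRNA genes that have a name. The authors deposited 1 region list per library and 1 table of DoG FPKM values, without read counts. The reads used for the scaling are not given in the sources used here, and 0 columns were unassigned. Each DoG-producing gene was counted once per library by its longest region (3 duplicate regions were dropped), and lengths of replicates were averaged.

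FPKM was tested on log2(FPKM + 0.1) with limma 3.58.1 (R 4.3.3), with an intensity trend, in 1 fit of 16 libraries in 8 groups, and p-values were adjusted by the Benjamini-Hochberg method over 3139 DoGs in each comparison. In simulated data for the comparison of conditions in hiAGPC, run on 3139 DoGs, 189 of 200 changed DoGs were recovered and 0 of the others called. Every planted change exceeded the size threshold, and the other DoGs were left unchanged. In the measured data most DoGs moved, a setting that the simulation did not cover. DESeq2, used in the study, was not run, as FPKM values are not counts. Numbers per library were compared with a two-sided exact permutation test. Gene positions and types came from GENCODE 44 (3495 of 3505 identifiers matched), and sequence from GRCh38. Tables were made with Python 3.11.15, pandas 2.3.3 and numpy 2.4.6.

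The genes named are the 10 highest and 10 lowest called fold changes among DoGs listed in both libraries of the higher condition, the 5 longest OS+CHX DoGs, the 5 largest and 3 smallest length ratios, up to 4 members of each of 19 gene lists (those called highest and lowest and those with the highest levels), 3 genes shown in the study, and the 3 most positive and 3 most negative called differences from each other preparation. The members and lists were chosen with earlier results of these data known. Alternatives were other pseudocounts, a level filter, centring, a replicate block, no trend and no size threshold. Reproducibly listed DoGs, fewer libraries and each library left out were also used. For the lists the alternatives were a 20 kb minimum, either replicate, 1 replicate left out of both conditions and other length summaries. The 2 restrictions by overlap with other genes or DoGs and a replicate block within each condition were added after seeing the data. Per the study's methods, conventional AGPC and hiAGPC RNA were extracted from the same samples, so libraries of 1 condition may share cells across preparations. Results for 1 locus are not reported here.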

Additional observations from a re-analysis of the deposited data

Results flagged for a closer look

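The change under OS+CHX differed between preparations by the test of the difference itself. The DoGs tested had to be found in some library, and preparations in which more were found contributed more of them. The numbers in each direction were therefore partly fixed in advance. Between hiAGPC and conventional AGPC, the log2 fold change was more positive in hiAGPC for 2009 DoGs and more negative for 23, of which 21 were called lower in hiAGPC. Between hiAGPC and the SERIPH 2nd-step fraction, it was more positive in hiAGPC for 36 DoGs, of which 23 were called lower in hiAGPC, and more negative for 175. Whether a single library lies apart from its group was not tested, because each group has 2 libraries.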

How the results depend on the processing

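With a pseudocount of 1, the DoGs called higher in hiAGPC fell to 340 and those called lower to 4, the positive and negative differences from conventional AGPC to 132 and 0, and those from the SERIPH 2nd-step fraction to 0 and 1. A pseudocount of 0.01 gave 64 positive differences from the SERIPH 2nd-step fraction. Centring gave 435 higher and 900 lower in hiAGPC, 109 positive and 542 negative differences from conventional AGPC, and 121 positive and 28 negative from the SERIPH 2nd-step fraction. It also changed the sign of 10 named log2 fold changes, to -1.11 (DNMT1), -1.78 (GSPT1), -0.37 (H4C11), -0.53 (H4C4), -0.96 (H4C7), -1.70 (NEK6), -0.14 (PPP1R15A), -0.86 (RPL11), -1.83 (SDHA) and -1.18 (WNK1). By construction, DoGs listed in both replicates of a condition, 1633 in number, gave fewer calls, with 1181 higher and 142 lower, 1088 positive and 11 negative differences from conventional AGPC, and 72 negative from the SERIPH 2nd-step fraction. The adjusted p alone gave 484 lower, 126 negative differences from conventional AGPC, and 172 positive and 1401 negative from the SERIPH 2nd-step fraction. The 1838 DoGs without another gene of their strand in the region, a restriction added after seeing the data, gave 1274 higher (69.3%) and 200 lower (10.9%). The cause of the changes under the other settings was not tested. A minimum length of 20 kb raised the ratio of DoG-producing genes to 10.1, left 23 shared genes and gave a length ratio of 3.18. Genes with an FPKM value gave a ratio of 3.39, and regions reaching no other gene a length ratio of 1.5. Leaving out 1 library gave 2200 to 2219 higher and 288 to 291 lower, 1978 to 2025 positive and 19 to 24 negative differences from conventional AGPC, and 40 to 42 positive and 153 to 220 negative from the SERIPH 2nd-step fraction. For the lists, 1 replicate was left out of both conditions, so 1 library stood against 1. The ratio of DoG-producing genes was then 3.65 to 3.68 and the length ratio 1.58 to 2.00. Shared genes numbered 206 to 214, but these had to be listed in only 1 library of each condition. That count is thus not comparable with the count of genes listed in both replicates. The labels do not tie the replicate numbers to shared cells. Deviations of same-numbered control and OS+CHX hiAGPC libraries had a correlation of 0.0048 across DoGs, and those of hiAGPC and conventional libraries had -0.0185 in control and -0.0539 in OS+CHX. With the number as a replicate block, 2203 DoGs were called higher and 287 lower, 2009 and 23 differed from conventional AGPC, and 36 and 175 from the SERIPH 2nd-step fraction. With a replicate block within each condition, added after seeing the data, 2008 and 23 differed from conventional AGPC and 36 and 175 from the SERIPH 2nd-step fraction. Precision is limited by 2 libraries per group, FPKM in steps of 0.01 and unknown depth.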
